A study of Mus musculus with 24 samples.

Results

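The C-type lectin receptors described here are 10 mouse genes, Clec4f, Cd207, Clec1b, Cd209f, Cd209b, Clec4g, Clec4e, Clec4d, Clec4n and Clec7a, which were taken by their symbols from the 48820 entries of each of 4 RNA-seq count tables, and all 10 were found in every table. The study asked how GDF2 (BMP9) and BMP10, ligands of the BMP family made by hepatic stellate cells (HSCs), act on the macrophages, endothelial cells (ECs) and tissue of the liver, and its 24 libraries form 8 groups of 3 libraries. HSC-KO mice carried Gdf2 fl/fl, Bmp10 fl/fl and Lrat Cre, a Cre driver that acts in HSCs, and their controls carried Gdf2 fl/fl and Bmp10 fl/fl. Smad4 cKO mice carried Smad4 fl/fl and Vav1 Cre, which acts in all blood cells and not in macrophages alone, and their controls carried Smad4 fl/fl. Smad4 encodes the common partner of the SMAD proteins that carry BMP and TGF-beta signals to the nucleus. The macrophage gate was CD45+Ly6C-F4/80+CD64+ and the EC gate CD45-CD31+, with cells from mice aged 8 to 10 weeks, and whole livers came from mice aged 12 weeks. The floxed alleles were thus shared by mutants and controls, and all mice were on the C57BL/6J background.

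C-type lectin receptors are membrane proteins with a calcium-dependent sugar-binding fold, or a relative of it, on the outside of the cell. Kupffer cells, the resident macrophages of the liver, and the sinusoidal ECs beside them carry many of these receptors, which take up glycoproteins, microbes and cell debris from the blood. Some of them (Clec4n, Clec4d and Clec4e) signal through the adaptor FcR gamma and others (Clec1b and Clec7a) through a tyrosine motif of their own, and both routes lead to the kinase SYK, whereas Clec4f, Cd207, Clec4g and the Cd209 genes are known mainly as receptors for binding and uptake.

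By GENCODE vM21 on GRCm38, 7 members lie on chromosome 6 and 3 on chromosome 8, in small groups. Clec4f (chr6:83644542-83656187) and Cd207 (chr6:83671215-83677857) are direct neighbours on the minus strand with 15 kb between them. Clec4n (chr6:123229843-123247021), Clec4d (chr6:123262111-123275265) and Clec4e (chr6:123281789-123289870) follow each other, with 15.1 kb and 6.52 kb between them. Clec1b (chr6:129397297-129409335) lies 52.3 kb before Clec7a (chr6:129461591-129472779), and Clec4g (chr8:3707064-3720651), Cd209b (chr8:3917655-3926844) and Cd209f (chr8:4102787-4105835) share a stretch of chromosome 8. The end of Clec1b and the start of Clec9a, which runs on the same strand, share 184 exonic bases, 3.61% of the exonic length of Clec1b. How reads from this stretch were counted is not given in the sources used here. An antisense gene, Gm16553, covers 146 exonic bases of Clec4g, and whether the counting used the strand is not given in the sources used here. Clec7a is annotated as a polymorphic pseudogene in that release.

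The 250 bases before the start of transcription are shown for Clec4f and Cd207, the neighbours with the largest falls in macrophages, for Clec1b, which both cell types expressed, and for Clec4g, the most abundant member in ECs. They are from RefSeq on GRCm38.p6, read 5′ to 3′ along the gene, with capitals for matches to a searched motif.
Clec4f, chr6:83656117-83656366, minus strand: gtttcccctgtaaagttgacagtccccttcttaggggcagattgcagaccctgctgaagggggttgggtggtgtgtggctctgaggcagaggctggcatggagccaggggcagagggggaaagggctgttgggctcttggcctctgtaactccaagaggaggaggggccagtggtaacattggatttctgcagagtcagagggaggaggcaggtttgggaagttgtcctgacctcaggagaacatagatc
Cd207, chr6:83677858-83678107, minus strand: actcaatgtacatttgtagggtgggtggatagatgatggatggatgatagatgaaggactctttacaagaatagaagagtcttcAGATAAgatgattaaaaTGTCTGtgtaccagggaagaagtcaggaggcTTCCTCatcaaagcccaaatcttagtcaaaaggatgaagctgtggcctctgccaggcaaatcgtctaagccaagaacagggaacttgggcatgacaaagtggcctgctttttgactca
Clec1b, chr6:129397047-129397296, plus strand: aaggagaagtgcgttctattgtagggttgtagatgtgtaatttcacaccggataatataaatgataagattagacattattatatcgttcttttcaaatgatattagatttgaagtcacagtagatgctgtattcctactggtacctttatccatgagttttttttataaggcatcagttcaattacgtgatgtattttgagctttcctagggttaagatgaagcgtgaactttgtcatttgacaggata
Clec4g, chr8:3720652-3720901, minus strand: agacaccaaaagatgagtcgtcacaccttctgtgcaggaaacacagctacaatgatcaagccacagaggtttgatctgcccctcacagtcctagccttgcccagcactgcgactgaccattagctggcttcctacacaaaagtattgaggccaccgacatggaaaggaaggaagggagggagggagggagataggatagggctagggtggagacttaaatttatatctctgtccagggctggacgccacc

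A set of 6 motifs was searched on both strands of these windows, of which 9 members had at least 1 (Clec7a had 2 and Clec4n is named only). The letters GGCGCC belong to SMAD-binding elements, as do the letters CAGACA. The letters TGCTGAC are known from MAF sites, whereas CACGTG is the core of many E boxes. PU.1 sites hold GAGGAA, and sites of GATA factors hold AGATAA. In the Cd207 window, AGATAA stood 166 bases, CAGACA (as its reverse complement) 149 bases and GAGGAA (likewise) 118 bases before the start, with no overlap between them. GAGGAA was also in the windows of Clec4d, Clec4e and Clec7a. GGCGCC was in no member's window. The MAF letters and those of the E box were absent from all of them too, and none of the 6 was in the windows of Clec4f, Clec1b, Clec4g, Cd209b and Cd209f. Of 32851 windows of this length over all genes, 23.3% held the PU.1 letters, 17.1% the SMAD letters of the Cd207 window, 9.99% the GATA letters, 9.59% the other SMAD letters, 6.02% those of the E box and 3.81% those of MAF. These matches describe the letters of the windows alone.

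Each library held 60911527 to 110879155 counts over 17480 to 21597 genes, and no pair of libraries had identical counts. In HSC-KO livers Gdf2 was at 2.87 ± 0.887 CPM (counts scaled to library size with TMM factors, mean ± SD of 3 libraries) against 16.8 ± 6.71 in control livers and Bmp10 at 0.156 ± 0.0923 against 2.67 ± 0.644, and in Smad4 cKO macrophages Smad4 was at 15.1 ± 2.32 against 39.4 ± 3.82 CPM, lower in each mutant library than in any of its controls. All 10 macrophage markers had counts in every macrophage library and all 12 EC markers in every EC library. EC transcripts were present in the macrophage sorts. The EC share, the median over 12 EC markers of the level in a library as a percentage of that in control ECs, was 0.0854, 1.56 and 1.09% in the control macrophages of the HSC-KO experiment, 0.0549, 0.0452 and 0.325% in HSC-KO macrophages, 8.49, 2.36 and 8.84% in Smad4 control and 10.3, 9.07 and 7.4% in Smad4 cKO macrophages. By a tag shared in their labels, 3 mice were taken to have given both a macrophage and an EC library. These were control replicate 2 of the macrophages (3 of the ECs), HSC-KO replicate 2 (3 of the ECs) and HSC-KO replicate 3 (1 of the ECs). The labels do not state that the tag stands for a mouse.

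In the absence of a mutation, most members had their higher level in macrophages. In control ECs compared with control macrophages, 8 members were lower and 2 higher, where 36.0% of the 16263 genes tested (18.0% lower and 18.0% higher) passed the same thresholds (a gene is a DEG where edgeR's quasi-likelihood test with Benjamini-Hochberg adjustment gave p below 0.05 and the log2 fold change exceeded 1 in size). Clec4e, Clec4d and Clec4n passed the filter on low counts only through the macrophage libraries, so nothing is read from the number called. Values between genes are compared as RPKM, reads per kilobase of exon scaled to library size, normalised over all 24 libraries. Clec4f, a Kupffer cell receptor for galactose-type sugars, was the highest member in control macrophages at 4832 ± 270.0 RPKM (SD, n = 3). Cd207, or langerin, known as a mannose receptor of Langerhans cells, followed at 252 ± 30.2 RPKM. Clec7a (Dectin-1, a receptor for beta-glucan) at 217 ± 37.9, Clec4n (Dectin-2, which binds fungal mannan) at 129 ± 12.7, Clec1b (CLEC-2, the receptor for podoplanin) at 128 ± 5.55 and Cd209f, a mouse relative of DC-SIGN, at 71 ± 18.5 RPKM came next. Clec4g was at 26.3 ± 22 RPKM there. The lowest levels were those of Cd209b (SIGN-R1, a receptor for polysaccharides) at 1.95 ± 0.744, Clec4d at 1.02 ± 0.36 and Clec4e at 0.0895 ± 0.0572 RPKM, whose products (MCL and Mincle) bind mycobacterial glycolipid.

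In control ECs, Clec4g, which encodes the sinusoidal EC lectin LSECtin, stood at 2345 ± 287 RPKM. Its level was 6637, 5263 and 5921 CPM in the EC libraries and 7.73, 115 and 68.3 CPM in the macrophage libraries, with no overlap (log2 fold change 6.54, SE 0.98, edgeR adjusted p = 0.0013). Cd209b was the other member higher in ECs, at 14.2, 19.1 and 25 against 2.3, 4.54 and 5.28 CPM (log2 fold change 2.27, SE 0.36, edgeR adjusted p = 0.0019). Clec1b was expressed in both cell types. It had 243, 249 and 268 CPM in ECs and 648, 670.3 and 608 CPM in macrophages, 2.53-fold lower in ECs (log2 fold change -1.34, SE 0.13, edgeR adjusted p = 0.00019). The other 7 members were lower in ECs as well. Clec4e and Clec4d had no count in any EC library, which puts Clec4d at least 43.4-fold lower than in macrophages when 3 counts per library are taken as the floor. Clec4e had only 12 to 63 counts in the macrophage libraries. The log2 fold changes of Clec4f, Cd207, Cd209f, Clec4n and Clec7a were -10.74, -10.15, -9.48, -10.89 and -9.47. Without macrophage replicate 2 that of Clec4g was 7.33, and that of Clec4n was -10.23 without EC replicate 1 and -12.68 without EC replicate 3. Cell type, sort and count table cannot be told apart in this comparison, and 62.4% of all genes tested had no overlap between the groups.

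The low levels of the macrophage members in control ECs were set beside those that macrophage transcripts in the sort would give. The macrophage share of the control EC libraries, taken over 10 macrophage markers in the same way as the EC share, was 0.178, 0.12 and 0.127%. Multiplied by the level in control macrophages (CPM by library size here), it gives 20.3, 13.6 and 14.4 CPM for Clec4f, of which 7.26, 6.89 and 7.01 were measured. For Clec7a it gives 0.967, 0.65 and 0.689 CPM, and 0.715, 0.616 and 1.1 were measured. The products for Cd207, Cd209f and Clec4n were 0.439 to 0.653, 0.162 to 0.241 and 0.209 to 0.31 CPM, with 0.225 to 0.49, 0.131 to 0.236 and 0 to 0.225 measured. For Clec1b, Cd209b and Clec4g the products were 0.747 to 1.11, 0.00464 to 0.00691 and 0.0724 to 0.108 CPM, below the measured 245 to 271, 15.8 to 24.8 and 5179 to 7396 CPM in every library.

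**Figure D1:**
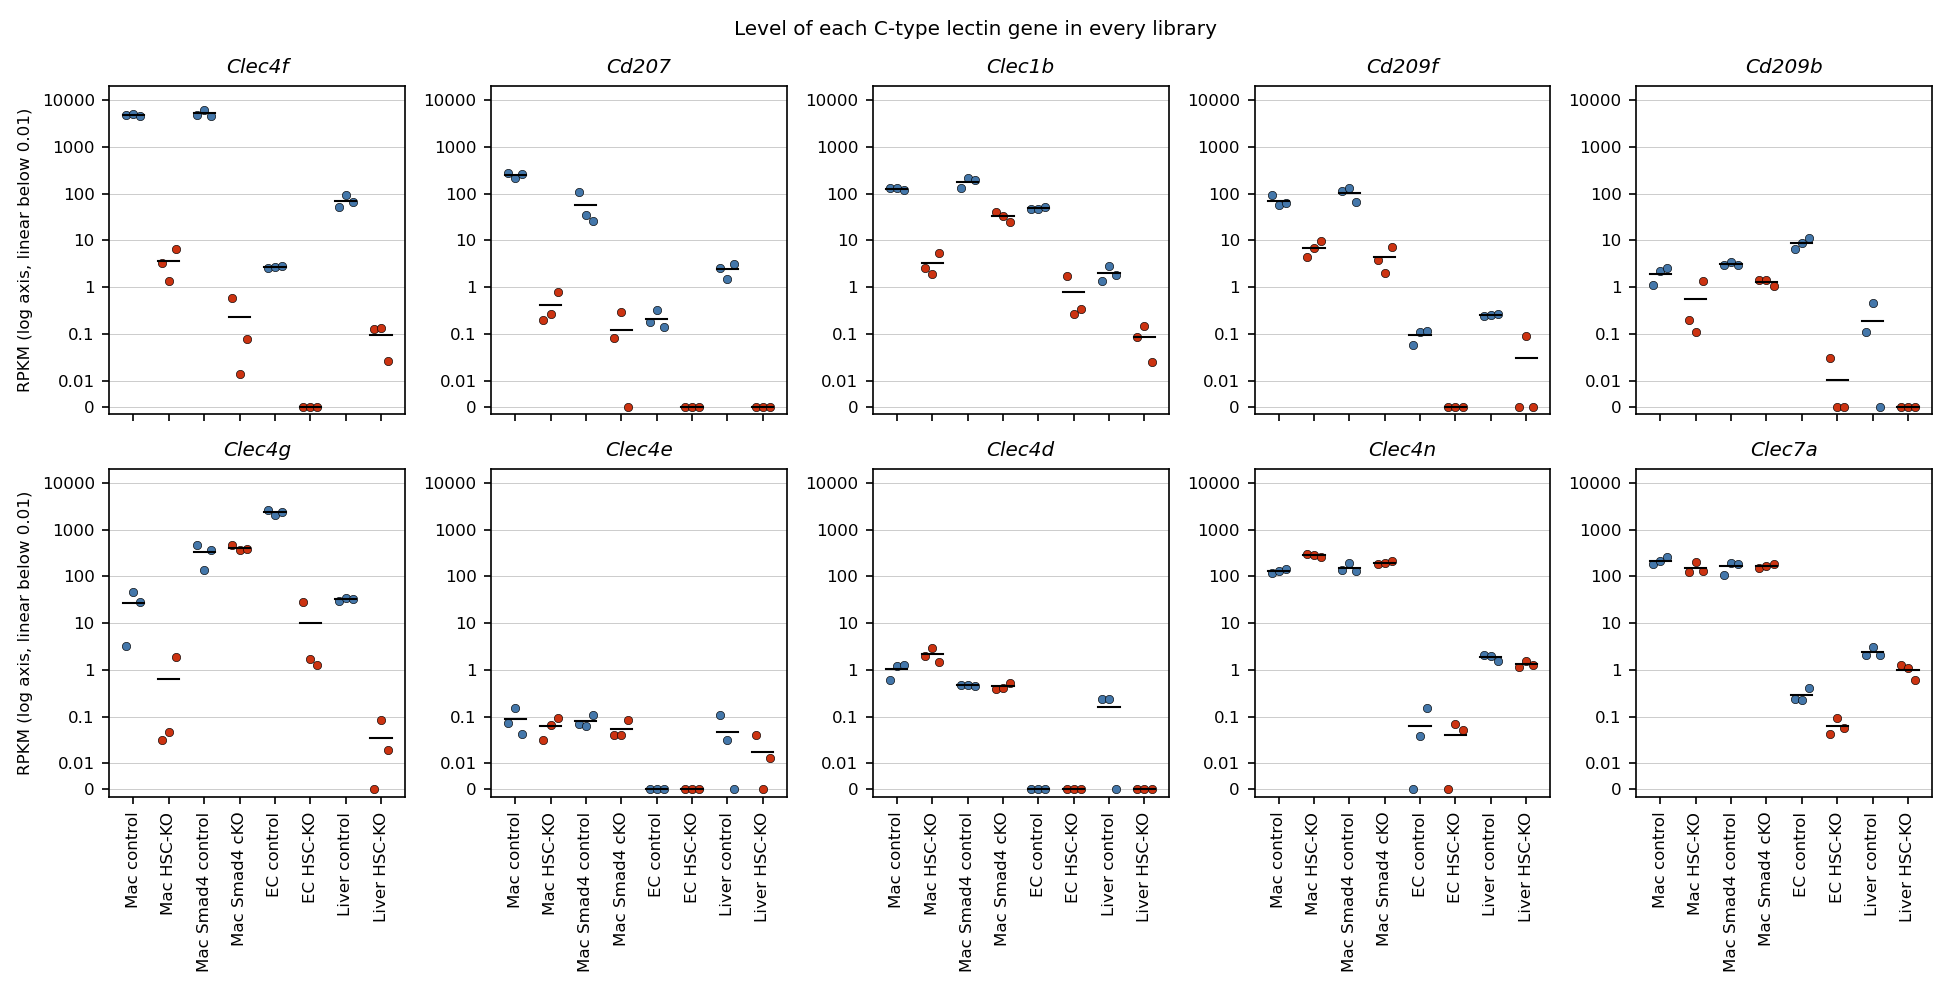
Level of each member as RPKM on a log axis (linear below 0.01) in the 24 libraries, 1 panel per gene. Points are libraries, blue for controls and red for mutants, and lines are group means; Mac stands for macrophages. Clec4f is near 4832 RPKM in control macrophages and at 0 in all 3 HSC-KO EC libraries, whereas Clec4n and Clec7a stay above 100 RPKM in every macrophage group.

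Macrophages of HSC-KO mice were next compared with those of their controls to see which of these receptors change when HSCs lack both ligands. Clec4f, Cd207, Clec1b and Cd209f fell and Clec4n rose, 5 DEGs among the 10 members, where 11.7% of the 16337 genes tested were DEGs (5.34% lower and 6.32% higher). The median log2 fold change was -2.51 over the members and 0.04 over all genes tested. In 7 members the groups did not overlap, against 40.3% of all genes. Clec4g, one of the 7, needed the control libraries to pass the filter on low counts, so nothing is read from that number. The macrophage share was 95.7 to 102% in controls and 78.2 to 85% in HSC-KO macrophages, with none of the 10 macrophage markers called.

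Clec4f had 11915, 12235 and 11029.5 CPM in the control libraries and 8.16, 3.26 and 16.6 CPM in the HSC-KO libraries. Every control was thus far above every mutant, and HSC-KO replicate 3 was the highest of the mutants. The fall was 1258-fold (log2 fold change -10.30, SE 0.72, edgeR adjusted p = 0.00014). Cd207, its neighbour, went from 419.9, 325 and 388 to 0.308, 0.398 and 1.25 CPM, that is from 35517, 27615 and 22194 counts to 27, 38 and 114. Again every control lay above every mutant and HSC-KO replicate 3 was the highest mutant (log2 fold change -9.17, SE 0.57, edgeR adjusted p = 8.6e-05). Clec1b, the podoplanin receptor, had 660.2, 658 and 611 CPM in controls and 13.7, 9.55 and 29.2 CPM in HSC-KO macrophages. Its groups did not overlap, and the fall was 36.8-fold (log2 fold change -5.20, SE 0.43, edgeR adjusted p = 0.00027). Clec9a, the dead-cell receptor whose exons overlap those of Clec1b, had 6.45, 5.88 and 3.88 CPM against 4.2, 4.98 and 8.85 CPM and did not pass the test (edgeR adjusted p = 0.80). Cd209f went from 182, 113 and 122 to 8.87, 13.5 and 20.5 CPM, a fall of 9.72-fold with no overlap (log2 fold change -3.28, SE 0.34, edgeR adjusted p = 0.00066). Without HSC-KO replicate 3 the log2 fold changes of Clec4f, Cd207 and Clec1b were -11.00, -10.05 and -5.79.

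Clec4n, the Dectin-2 gene, moved the other way. It had 162, 183 and 195 CPM in controls and 434, 412 and 388 CPM in HSC-KO macrophages, and the libraries of each group lay close together without overlap. The rise was 2.28-fold (log2 fold change 1.19, SE 0.12, edgeR adjusted p = 0.00064); tested against a log2 fold change of 1 it was not significant (edgeR adjusted p = 0.25). Its neighbour Clec4d, whose product pairs with Mincle, had 0.958, 1.86 and 1.97 CPM in controls and 3.22, 4.77 and 2.41 CPM in mutants. The groups did not overlap, but the gene missed the threshold (log2 fold change 1.12, SE 0.40, edgeR adjusted p = 0.092), which it passed by DESeq2 (adjusted p = 0.043). Clec4e, also of that cluster, was near the limit of counting with 30, 63 and 12 counts in controls and 14, 31 and 45 in mutants, and the groups overlapped (log2 fold change -0.42, SE 0.73, edgeR adjusted p = 0.74). Clec7a, with 478, 541 and 668 against 331, 538 and 351 CPM, overlapped as well (log2 fold change -0.47, SE 0.22, edgeR adjusted p = 0.18). The neutrophil markers, which bear on Clec4e and Clec4d because neutrophils express both, summed to 1.23 to 3.52 CPM (by library size, as for all marker lists) in controls and 0 to 1.5 CPM in HSC-KO macrophages, and Ly6g and Mpo were at 0 in both groups. Cxcr2 and Elane went from 0.0476 and 0.112 CPM to 0, and Camp from 0 to 0.109 CPM. Monocyte markers summed to 632 to 795 and 226 to 361 CPM, with 3 of the 7 tested higher and 2 lower. Treml4 and Plac8, with means of 526 and 126 CPM in controls, were at 140 and 6.54 CPM in mutants, whereas Ccr2 was at 6.68 and 69.1, F13a1 at 0.361 and 33.3 and Ly6c2 at 0.412 and 2.91 CPM. Lymphocyte markers summed to 14.4 to 26 and 50.2 to 158.5 CPM, with 4 of 8 higher (median log2 fold change 3.22). Dendritic cell markers summed to 49.9 to 62.2 and 37.9 to 71.4 CPM, with 2 of 8 higher (median 1.62), Xcr1 at 1.22 and 7.95 and Siglech at 0.238 and 5.43 CPM, whereas Batf3, the most abundant of them, was at 48.1 and 26.1 and Dpp4 at 2.9 and 2.01 CPM. The part of these 3 lists in the rise of Clec4n was not tested.

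Clec4g and Cd209b, the EC members, did not pass the test in HSC-KO macrophages. Clec4g had 7.87, 113 and 68.6 CPM in controls and 0.0798, 0.115 and 4.74 CPM in mutants, where replicates 1 and 2 were near 0 and HSC-KO replicate 3 was close to the lowest control (log2 fold change -5.26, SE 1.59, edgeR adjusted p = 0.056). Without HSC-KO replicate 3 the log2 fold change was -9.31 (edgeR adjusted p = 0.0083), and without control replicate 1 it was -5.79 (edgeR adjusted p = 0.041). DESeq2 called it as well (log2 fold change -5.27, adjusted p = 0.013), as did edgeR with a filter of 10 counts in every library of a group (adjusted p = 0.047) or with all 12 macrophage libraries in 1 fit (adjusted p = 0.015), and over 18 alternatives it was called in 8 (adjusted p from 0.00052 to 0.16). Cd209b had 2.34, 4.45 and 5.31 against 0.422, 0.231 and 2.95 CPM, and HSC-KO replicate 3 lay among the controls (log2 fold change -1.75, SE 0.89, edgeR adjusted p = 0.22). Leaving that library out gave -3.62 (edgeR adjusted p = 0.0079).

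The level of Clec4g in macrophage libraries was set beside their EC share. In the control libraries of the HSC-KO experiment, the EC share times the Clec4g level of control ECs gives 5.25, 95.9 and 67.3 CPM, and 7.92, 109 and 64.5 CPM (by library size) were measured. In HSC-KO libraries, with the level of HSC-KO ECs, it gives 0.017, 0.014 and 0.10 CPM, and 0.0815, 0.117 and 5.0 CPM were measured, higher in each library. In the Smad4 experiment the products were 145 to 544 CPM in controls and 455 to 632 CPM in Smad4 cKO macrophages, below the measured 317 to 1129.9 and 936 to 1219 CPM. With the EC share as a covariate the log2 fold change of Clec4g in HSC-KO macrophages was -3.17 (edgeR adjusted p = 0.031), and the 5 DEGs among the members remained DEGs. The products for Clec4f, Cd207 and Cd209f were under 1 CPM in all 12 macrophage libraries, far below the levels measured in both control groups, and 0 in HSC-KO macrophages. In Smad4 cKO macrophages they were 0.725, 0.64 and 0.522 CPM for Clec4f, of which 1.56, 0.0361 and 0.202 were measured. Those for Cd207 were 0.0351, 0.031 and 0.0253 CPM, beside a measured 0.131, 0.469 and 0, and those for Cd209f 0.0146 to 0.0203 CPM, beside 4.17 to 15.7.

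**Figure D2:**
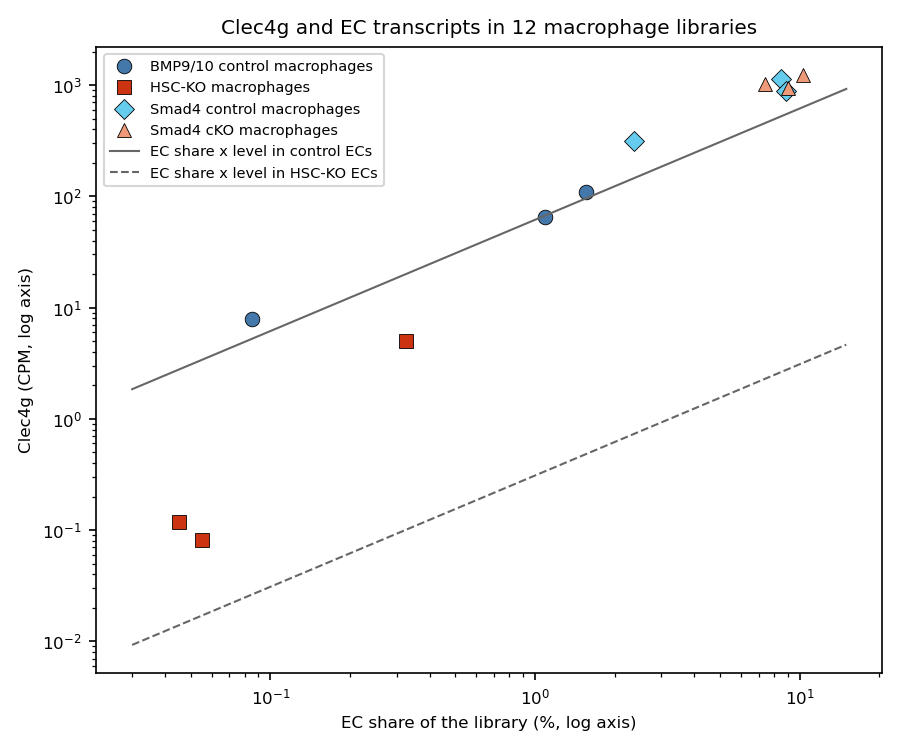
Clec4g level in CPM against the EC share in percent, both on log axes, for the 12 macrophage libraries. Points are libraries by group. The solid and dashed lines give the EC share times the mean Clec4g level of control and of HSC-KO ECs. Every HSC-KO macrophage library lies between the lines, with replicate 3 at the highest share of them, 0.325%.

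Smad4 cKO macrophages were compared with their own controls in the same way. Clec4f, Cd207, Clec1b, Cd209f and Cd209b fell and no member rose, 5 DEGs among 10, where 5.43% of the 17517 genes tested were DEGs (2.67% lower and 2.76% higher). The median log2 fold change was -0.91 over the members and 0.04 over all genes. The 5 fallen members were also those whose groups did not overlap, against 29.4% of all genes. Clec4f and Cd207 needed the control libraries to pass the filter on low counts, so nothing is read from these numbers.

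Clec4f had 11975, 15199 and 11519.9 CPM in controls and 1.47, 0.0345 and 0.191 CPM in Smad4 cKO macrophages, or 143, 4 and 16 counts. The mutants differed among themselves widely, and all lay far below the controls (log2 fold change -14.48, SE 1.34, edgeR adjusted p = 0.00094). Cd207 went from 165, 51.7 and 40 CPM, where control replicate 1 was well above the others, to 0.124, 0.448 and 0 CPM (log2 fold change -8.70, SE 1.07, edgeR adjusted p = 0.0032). Its level in Smad4 controls was 55.7 ± 44.7 RPKM against 252 ± 30.2 RPKM in the controls of the HSC-KO experiment, and the libraries of these control groups did not overlap. Clec1b kept a higher level here, with 673, 1101 and 1023 CPM in controls and 207, 168 and 129.5 CPM in mutants. Each mutant was below each control, and the fall was 5.55-fold (log2 fold change -2.47, SE 0.25, edgeR adjusted p = 0.0013). Clec9a fell as well, from 11.4, 11.9 and 13.6 to 5.69, 7.69 and 3.99 CPM (log2 fold change -1.09, SE 0.25, edgeR adjusted p = 0.042). Cd209f went from 234, 267 and 133 to 7.63, 3.98 and 14.8 CPM without overlap (log2 fold change -4.58, SE 0.53, edgeR adjusted p = 0.0025). Cd209b went from 6.4, 7.34 and 6.29 to 3.0, 3.0 and 2.27 CPM, a fall of 2.42-fold that was small but without overlap (log2 fold change -1.28, SE 0.20, edgeR adjusted p = 0.0098). With 1 library left out, the log2 fold change of Clec4f was -16.90 without Smad4 cKO replicate 1 and -13.90 without replicate 2, that of Cd207 -7.83 without control replicate 1 and -10.32 without Smad4 cKO replicate 2, and that of Cd209f -5.19 without Smad4 cKO replicate 3. Tested against a log2 fold change of 1, or with all 12 macrophage libraries in 1 fit, Cd209b was not called (edgeR adjusted p = 0.67 and 0.35). The EC share times the Cd209b level of control ECs gives 57.1 to 63.8% of its level in Smad4 cKO and 6.8 to 29.3% of that in Smad4 control macrophages, and with the EC share as a covariate Cd209b was still called (log2 fold change -1.23, edgeR adjusted p = 0.037). The macrophage share was 97.4, 110.3 and 91% in Smad4 control and 78, 58.2 and 90.6% in Smad4 cKO macrophages, with 3 of the 10 macrophage markers lower, and its part in the fall of Cd209b was not tested.

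The other 5 members overlapped between Smad4 cKO and control macrophages. Clec4n had 196, 276 and 185 against 262, 279 and 304 CPM (log2 fold change 0.37, SE 0.17, edgeR adjusted p = 0.28) and Clec7a 286, 518 and 488 against 409, 451 and 494 CPM (log2 fold change 0.07, SE 0.22, edgeR adjusted p = 0.90). Clec4d was at 0.75 ± 0.00359 and 0.721 ± 0.121 CPM and Clec4e at 0.398 ± 0.119 and 0.274 ± 0.125 CPM, both low and without a call. Clec4g, at 1181, 339 and 928 CPM in controls and 1147, 894 and 965 CPM in mutants, was lowest in control replicate 2, the library with the lowest EC share of the experiment (log2 fold change 0.30, SE 0.40, edgeR adjusted p = 0.74).

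The responses of the macrophages to both deletions were then compared by an interaction over the 12 macrophage libraries. Clec1b differed: its log2 fold change was lower in HSC-KO than in Smad4 cKO macrophages by a difference of -2.68, SE 0.49, edgeR adjusted p = 0.015. It was the 1 DEG of this test among the 10 members, where 2.68% of the 18263 genes tested passed (1.22% with the lower change in HSC-KO macrophages and 1.46% with the higher). The lowest Smad4 cKO library held 129.5 CPM of Clec1b and the highest HSC-KO library 29.2 CPM, each on the scale of its own comparison. The EC share times the Clec1b level of control ECs gives 19.3 to 26.8 of the 137 to 219.6 CPM measured in Smad4 cKO macrophages. Tested against a difference of 1 the call was lost (edgeR adjusted p = 0.089), and without HSC-KO replicate 3 the difference was -3.27. Clec4f differed by 4.23, SE 1.13, edgeR adjusted p = 0.073, Clec4n by 0.87, SE 0.22, edgeR adjusted p = 0.057 and Clec4g by -5.52, SE 1.67, edgeR adjusted p = 0.11, none of which passed. Without Smad4 cKO replicate 1 the difference of Clec4f was 6.65 (edgeR adjusted p = 0.0061). That of Clec4g was -9.57 without HSC-KO replicate 3 (edgeR adjusted p = 0.0046), and DESeq2 called it with all libraries (adjusted p = 0.011). For Cd207 the difference was -0.43, SE 1.12, edgeR adjusted p = 0.91, and for Cd209f 1.35, SE 0.62, edgeR adjusted p = 0.31. Platelets also express Clec1b. The 8 platelet and megakaryocyte markers summed to 47.2 to 67.4 CPM (by library size) in the controls of the HSC-KO experiment and 584 to 986 CPM in HSC-KO macrophages. Nearly all of this was Pf4, which macrophages can express too, at means of 56.8 and 778 CPM and the 1 marker of 3 tested that rose. Gp1bb was at 0 in both groups, and Gp6 and Tubb1 went from 0.0159 CPM each to 0. The means of Ppbp were 0.035 and 0.184 CPM, of Itga2b 0.189 and 0.43, of Treml1 0.0657 and 0.259 and of Gp9 0.0635 and 0.0568 CPM. Their part in the result was not tested.

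**Figure D3:**
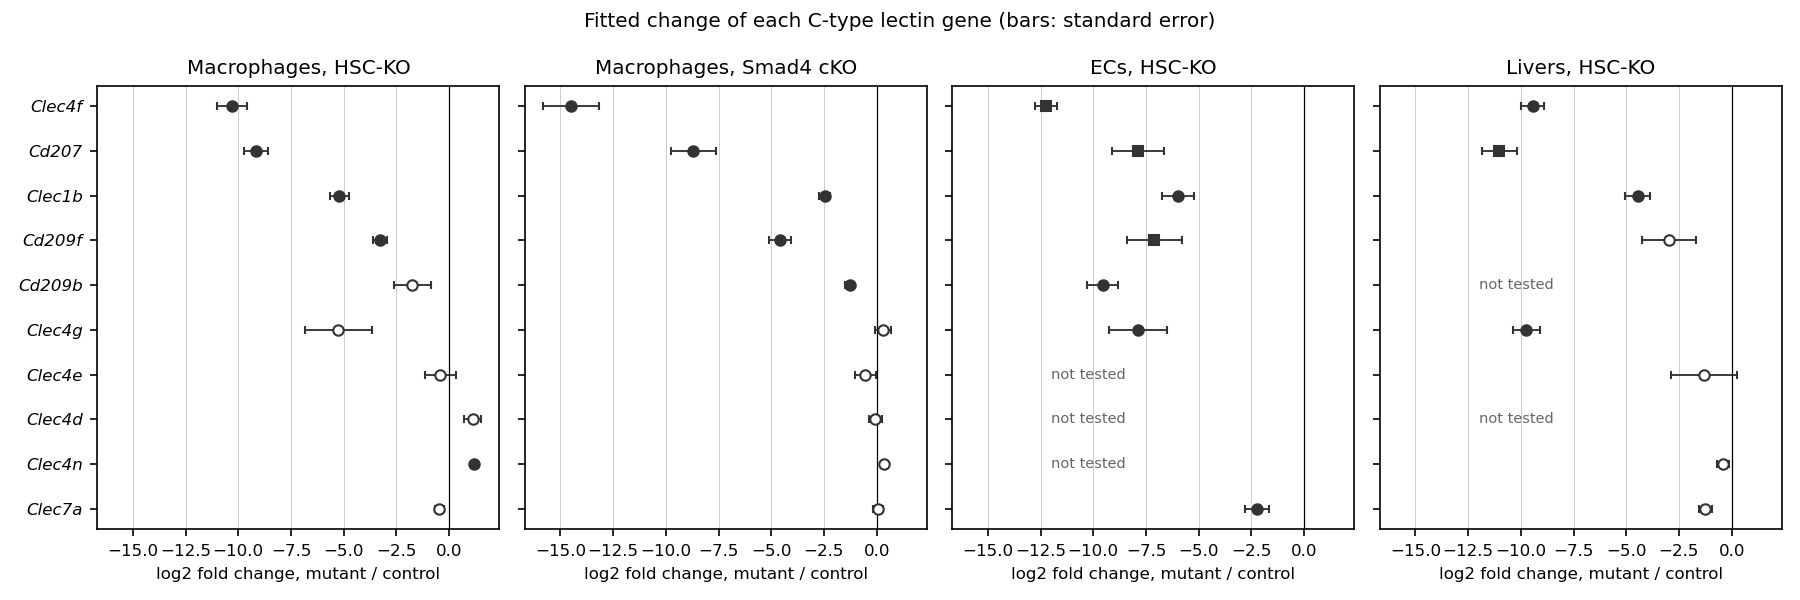
Fitted log2 fold change (mutant against control) of each member with its standard error in the 4 comparisons of 3 against 3 libraries. Filled symbols are DEGs, open symbols are not, and squares mark genes with at most 3 counts in every mutant library, whose fitted value depends on the prior count; Clec4n at 1.19 in HSC-KO macrophages is the one DEG to the right of 0.

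ECs of HSC-KO mice were compared with control ECs. Clec4f, Cd207, Clec1b, Cd209f, Cd209b, Clec4g and Clec7a, the 7 of the 10 members that passed the filter on low counts, were DEGs with lower levels, where 13.7% of the 16053 genes tested were DEGs (6.01% lower and 7.68% higher). Clec4e and Clec4d had no count in any EC library, and Clec4n, with 0, 4 and 19 counts in controls and 0, 8 and 7 in mutants, was under the filter on low counts. Clec4f, Cd207 and Cd209f, at 0 in each mutant, and Cd209b, at 0 to 7 counts, passed the filter through the controls alone, so nothing is read from the number of members called. Clec1b, Clec4g and Clec7a did not overlap between the groups, which held for 40.4% of all genes tested.

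Clec4g, the LSECtin gene, had 7575, 5977 and 6753 CPM in control ECs and 77.7, 4.86 and 3.63 CPM in HSC-KO ECs. Replicate 1 of the mutants held more than the others and still lay far below the controls (log2 fold change -7.88, SE 1.39, edgeR adjusted p = 0.0072). Cd209b went from 16.2, 21.7 and 28.5 CPM to 7, 0 and 0 counts, again with replicate 1 as the highest mutant (log2 fold change -9.56, SE 0.73, edgeR adjusted p = 0.00019). Clec1b fell 63.5-fold, from 277, 283 and 306 to 9.94, 1.58 and 2.05 CPM (log2 fold change -5.99, SE 0.76, edgeR adjusted p = 0.0017). In contrast, Clec9a, its overlapping neighbour, had 14.7, 19 and 22.6 against 11.2, 11.3 and 11.4 CPM, a difference without overlap whose log2 fold change of -0.73 was under the threshold. With the counts of both genes summed, all members that were DEGs remained DEGs. Without HSC-KO replicate 1 the log2 fold changes of Clec4g, Cd209b and Clec1b were -10.64, -13.68 and -7.31. Clec1a, an EC lectin next to Clec7a, had 153 ± 32.5 and 238 ± 49.3 CPM and was not a DEG (edgeR adjusted p = 0.076).

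The macrophage members also fell in EC libraries, from low levels. Clec4f went from 609, 492 and 593 counts in controls to 0 in each mutant, at least 212-fold lower with 3 counts per library as the floor (edgeR adjusted p = 0.00012). Cd207 went from 26, 35 and 19 counts and Cd209f from 11, 16 and 20 counts to 0 in each mutant, at least 10.3-fold and at least 6.02-fold lower (edgeR adjusted p = 0.0099 and 0.016). Clec7a had 60, 44 and 93 counts in controls and 12, 20 and 14 in mutants, without overlap (log2 fold change -2.23, SE 0.57, edgeR adjusted p = 0.030). The macrophage share was 0.178, 0.12 and 0.127% in control ECs and 0.0237, 0.0362 and 0.0282% in HSC-KO ECs, lower in every mutant than in any control. Multiplied by the Clec7a level of HSC-KO macrophages it gives 0.0993, 0.151 and 0.118 CPM, and 0.137, 0.30 and 0.201 CPM were measured. The summed level of the 10 macrophage markers was 266 to 317 CPM in control and 75.8 to 122 CPM in HSC-KO ECs, 6 of the 9 tested were DEGs with lower levels, and their part in these 4 falls was not tested. Monocyte markers summed to 19.8 to 49 CPM in control and 128 to 254 CPM in HSC-KO ECs, with 3 of the 5 tested higher and 1 lower, and their part was not tested either. The means were 0.136 and 76.2 CPM for Ly6c2, 20.5 and 59.9 for Nr4a1, 10.7 and 28.8 for Plac8 and 4.18 and 18.3 for Ace, whereas Treml4 was at 0.403 and 0.0352, Ccr2 at 0.0458 and 0.0552 and F13a1 at 0.0596 and 0.02 CPM. Leaving out any 1 control, or HSC-KO replicate 1 or 3, ended the call of Clec7a (edgeR adjusted p up to 0.11, without control replicate 3), and leaving out control replicate 2 ended that of Cd209f (edgeR adjusted p = 0.067). Without control replicate 3, Cd209f was under the filter on low counts and was not tested. With the replicate number as a block, neither Cd207 nor Cd209f was called (edgeR adjusted p = 0.060 and 0.089). Clec7a was also lost when tested against a change of 1 on the log2 scale (edgeR adjusted p = 0.15) and with Xist as a covariate (edgeR adjusted p = 0.051), and over 15 alternatives it was called in 7.

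**Figure D4:**
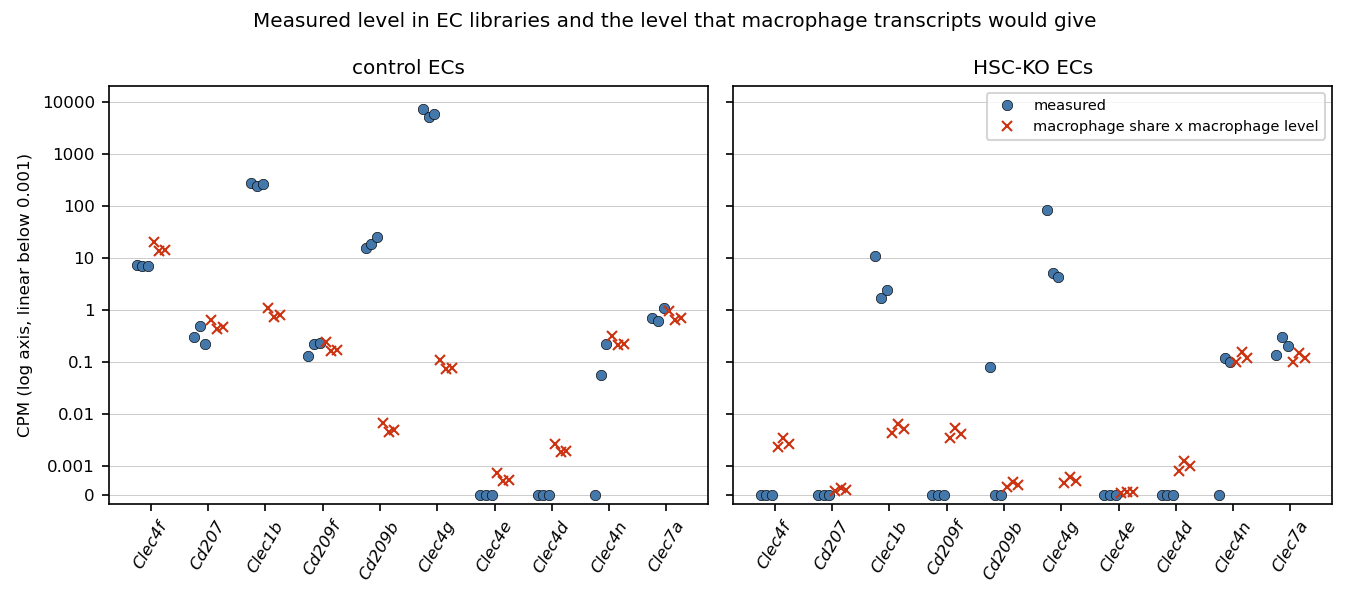
Measured level of each member (circles) in the 3 control and 3 HSC-KO EC libraries, in CPM by library size on a log axis that is linear below 0.001, and the macrophage share of each library times the mean level in macrophages of the same genotype (crosses). Measured values of Clec1b, Cd209b and Clec4g lie above the crosses in all 3 control libraries, whereas Clec7a, at 0.616 to 1.1 CPM in controls, has its crosses at 0.65 to 0.967 CPM.

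Whether a member responded differently in macrophages and ECs of HSC-KO mice was tested by an interaction over 12 libraries. Cd209b and Clec7a differed, 2 of the members, where 12.3% of the 18325 genes tested passed (6.29% with the higher change in macrophages and 5.96% with the lower). The log2 fold change of Cd209b was higher in macrophages by 7.82, SE 1.46, edgeR adjusted p = 0.0044. It was 5.95 without HSC-KO macrophage replicate 3 and 11.93 without HSC-KO EC replicate 1, the ends of the range with 1 library left out. With 7, 0 and 0 counts of Cd209b in HSC-KO ECs, the size of this difference rests on a level near the limit of counting. For Clec7a the difference was 1.79, SE 0.44, edgeR adjusted p = 0.020, and it lost its call with the mouse as a random effect (limma-voom adjusted p = 0.26), in a test against a difference of 1 (edgeR adjusted p = 0.17), without HSC-KO EC replicate 3 (edgeR adjusted p = 0.052) and without both libraries of the mouse described next (edgeR adjusted p = 0.057). The macrophage share of the EC libraries gives 62.7 to 135% of the Clec7a level measured in control ECs and 50.4 to 72.7% of that in HSC-KO ECs, and its part in this difference was not tested. By edgeR no difference was called for Clec1b (0.79, SE 0.84, edgeR adjusted p = 0.60), Clec4g (2.62, SE 2.07, edgeR adjusted p = 0.45), Clec4f (1.91, SE 1.44, edgeR adjusted p = 0.43), Cd207 (-1.34, SE 3.63, edgeR adjusted p = 0.89), Cd209f (3.78, SE 1.47, edgeR adjusted p = 0.12, and DESeq2 adjusted p = 0.049) or Clec4n (1.97, SE 1.11, edgeR adjusted p = 0.27), and the standard errors of Cd207, Clec4g and Cd209f left room for differences of several log2 units. The difference of Clec4n ranged from 0.13 to 2.59 with 1 library left out. With all EC libraries at 0, no difference is given for Clec4e and Clec4d.

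A single HSC-KO mouse had the highest level of several members among the mutants in both of its libraries. By the shared tag, it gave HSC-KO macrophage replicate 3 and HSC-KO EC replicate 1. In macrophages it was the highest mutant for 7 members, namely Clec4f, Cd207, Clec1b, Cd209f, Cd209b, Clec4g and Clec4e, and in ECs for Clec1b, Cd209b and Clec4g. How many of all genes were highest in these libraries was not counted, so nothing is read from the number. The EC share of the macrophage library was the highest of its group, at 0.325% against 0.0549 and 0.0452%, and its part was not tested. As a percentage of the control mean, Clec1b was at 2.13, 1.49 and 4.55% in the HSC-KO macrophage libraries, in order of replicate, and at 3.44, 0.546 and 0.711% in the EC libraries. Clec4g was at 0.126, 0.182 and 7.51% and 1.15, 0.0718 and 0.0537%. For Clec4f the values in macrophages were 0.0696, 0.0278 and 0.141%, and all EC libraries were at 0. Without both libraries of this mouse, a fit chosen after seeing the data, Cd209b still differed between macrophages and ECs, and Clec1b did too (log2 difference 1.54, edgeR adjusted p = 0.0055).

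**Figure D5:**
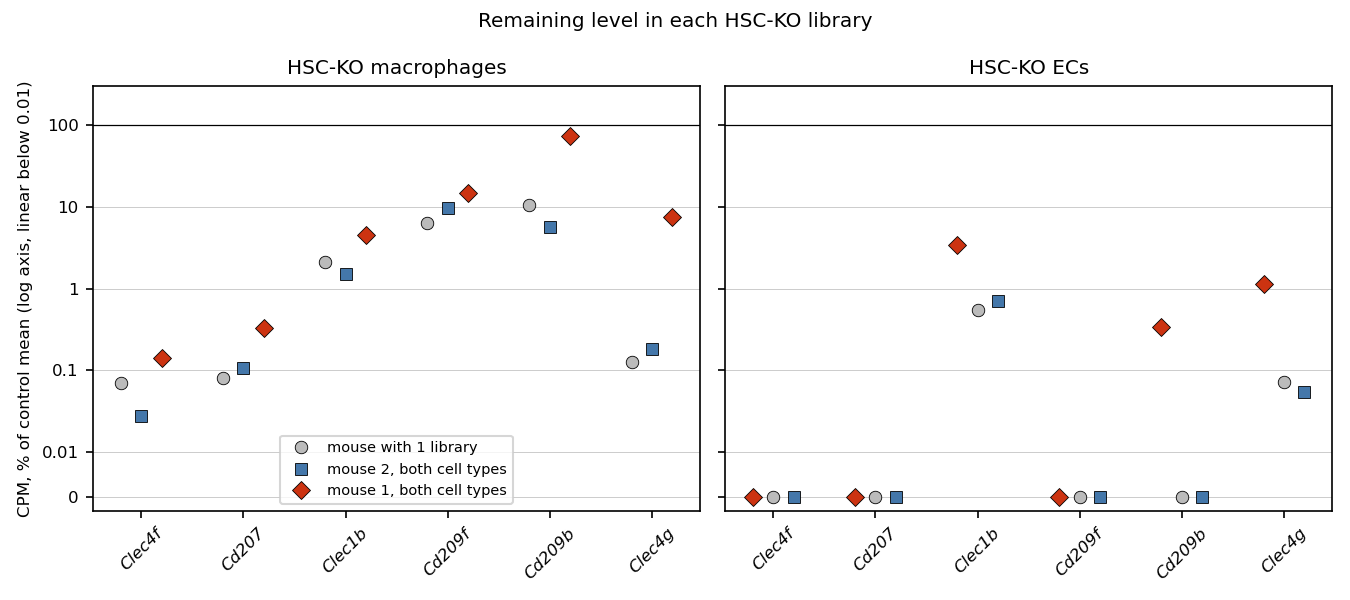
Level in each HSC-KO library as a percentage of the mean of its controls (log axis, linear below 0.01), for 6 members in macrophages and ECs. Diamonds and squares are the 2 mice taken, by the tag in their labels, to have given both libraries, and circles are mice with a single library. The diamonds are highest for all 6 genes in macrophages, with Clec4g at 7.51%, and for Clec1b, Cd209b and Clec4g in ECs.

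In whole livers, the 4 members Clec4f, Cd207, Clec1b and Clec4g fell in HSC-KO mice and no member rose, 4 DEGs of 8 tested, where 2.48% of the 17118 genes tested were DEGs (1.45% lower and 1.03% higher). Of the 8, only Clec4n and Clec7a passed the filter on low counts in the HSC-KO livers by themselves and the others needed the control libraries, so nothing is read from the number called. The groups of 19.7% of all genes tested did not overlap. In tissue, fewer cells of a type and less RNA per cell cannot be told apart. The macrophage share of the livers was 1.23, 1.64 and 1.19% in controls and 0.607, 0.655 and 0.314% in HSC-KO mice, and the EC share 2.98, 3.35 and 3.69% and 2.33, 2.9 and 2.23%.

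Clec4f had 104, 192 and 135 CPM in control livers and 20, 24 and 4 counts in HSC-KO livers (log2 fold change -9.44, SE 0.53, edgeR adjusted p = 0.00035). Cd207 had 351, 149 and 365 counts in controls and none in any mutant, at least 77.9-fold lower (edgeR adjusted p = 0.0038). Clec4g went from 59.9, 73.1 and 67.6 CPM to 0, 15 and 3 counts (log2 fold change -9.73, SE 0.62, edgeR adjusted p = 0.00053). No mutant liver held more than 24 counts of any of these genes. Clec1b went from 5.68, 12.2 and 7.69 to 0.389, 0.643 and 0.111 CPM without overlap (log2 fold change -4.46, SE 0.59, edgeR adjusted p = 0.010), and without HSC-KO replicate 1 the adjusted p of edgeR was 0.063. Cd209f, at 43, 33 and 41 against 0, 13 and 0 counts, had no overlap and no call (log2 fold change -2.96, SE 1.28, edgeR adjusted p = 0.39). With 1 library left out, its log2 fold change ranged from -8.17 to -2.41, still without a call. Clec7a, with 4.46, 6.98 and 4.63 against 2.87, 2.49 and 1.41 CPM, did not overlap either (log2 fold change -1.25, SE 0.33, edgeR adjusted p = 0.12), and was a DEG by DESeq2 (adjusted p = 0.0078). Clec4n overlapped at 2.2 ± 0.331 and 1.64 ± 0.267 CPM, as did Clec4e at 49, 10 and 0 and 13, 0 and 4 counts. Cd209b (21, 62 and 0 counts in controls) and Clec4d (35, 25 and 0 counts) were at 0 in each mutant and under the filter on low counts, so they were not tested. A control was at 0 for each as well, so the groups overlapped and no fold is given. Without HSC-KO replicate 2 the log2 fold change was -5.08 for Clec1b and -11.57 for Clec4g.

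Over the 8 groups, the order of the levels differed between members. Clec4f was highest in Smad4 control (5181 ± 863 RPKM) and BMP9/10 control macrophages (the controls of the HSC-KO experiment) (4832 ± 270.0), which overlapped, followed without overlap by control livers (69.3 ± 20.3) and then HSC-KO macrophages (3.65 ± 2.56) and control ECs (2.7 ± 0.099), which overlapped again. Clec1b followed the order Smad4 control (181 ± 45.5) and BMP9/10 control macrophages (128 ± 5.55, overlapping), control ECs (48.2 ± 2.27), Smad4 cKO macrophages (32.5 ± 7.37) and HSC-KO macrophages (3.32 ± 1.9 RPKM), the last 3 without overlap. Cd209f was at 7.01 ± 2.74 and 4.37 ± 2.73 RPKM in HSC-KO and Smad4 cKO macrophages, which overlapped. Cd209b in control ECs (8.9 ± 2.43 RPKM) did not overlap with Smad4 control macrophages (3.13 ± 0.305), the next group. Clec4g in control ECs was 2345 ± 287 RPKM and in HSC-KO ECs 10.3 ± 15.2. Clec4n was the highest member left in HSC-KO macrophages at 284 ± 20.2 RPKM, with no overlap with any other group, and Clec7a, at 152 ± 46.2 RPKM there, overlapped its neighbours in the order among the macrophage groups. Clec4d was at 2.14 ± 0.791 RPKM in HSC-KO macrophages against 1.02 ± 0.36 in their controls, and Clec4e was below 1 RPKM in all 24 libraries. The tables were scaled together here, and the macrophages of the HSC-KO and Smad4 experiments were counted in separate tables.

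Among 49 other C-type lectin genes, 38 were tested in HSC-KO macrophages, of which 9 rose and 4 fell (6.32% and 5.34% of all genes tested, median log2 fold change 0.19). Mgl2, a galactose-type lectin, rose from 0.729 ± 0.668 to 44.1 ± 10.5 CPM (log2 fold change 5.93, SE 1.00, edgeR adjusted p = 0.0061). Dendritic cells express Mgl2 as well, and the part of the dendritic cell markers given above in its rise was not tested. Cd93, a lectin-like receptor of ECs and myeloid cells, rose from 19.8 ± 5.88 to 965 ± 278 CPM (log2 fold change 5.60, SE 0.32, edgeR adjusted p = 6.8e-05). Cd209g, the neighbour of Cd209f, fell from 27.9 ± 8.95 to 3.56 ± 2.45 CPM (log2 fold change -2.97, SE 0.58, edgeR adjusted p = 0.011). Clec5a, a myeloid receptor that signals through DAP12, also rose (log2 fold change 4.14), and the scavenger collectin Colec12 (-4.20) and Klrk1, the NKG2D gene (-2.35), fell. In Smad4 cKO macrophages 1 of 39 rose and 6 fell (2.76% and 2.67% of all genes tested, median -0.36). Mgl2 rose there too, from 2.09 ± 0.545 to 8.99 ± 3.27 CPM (log2 fold change 2.10, SE 0.34, edgeR adjusted p = 0.010), and Cd209g fell from 51.4 ± 20.6 to 1.28 ± 0.888 CPM (log2 fold change -5.34, SE 0.64, edgeR adjusted p = 0.0029). Klrk1 and Colec12 fell there as well (log2 fold changes -2.99 and -2.65). In ECs 3 of 24 rose and 5 fell (7.68% and 6.01% of all genes tested, median -0.73). Mrc1, the mannose receptor, fell from 1455 ± 111 to 144 ± 153 CPM (log2 fold change -3.34, SE 0.72, edgeR adjusted p = 0.015), whereas Cd93 rose from 1063 ± 255 to 2919 ± 623 CPM (log2 fold change 1.46, SE 0.25, edgeR adjusted p = 0.0069). Ly75, the DEC-205 gene, and Thbd, which encodes thrombomodulin, rose in ECs (log2 fold changes 5.43 and 1.11), and Pla2r1, a phospholipase receptor, and Cd302 fell (-2.98 and -1.59). In livers 3 of 39 rose and 3 fell (1.03% and 1.45% of all genes tested), among them Mrc1, from 76.6 ± 26.3 to 11 ± 3.57 CPM (log2 fold change -2.81, SE 0.34, edgeR adjusted p = 0.0066). Clec12a and Clec14a fell with it (log2 fold changes -1.81 and -1.14), and Clec2h, Mrc2 and Cd93 rose (4.05, 1.71 and 1.63).

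The genes whose levels were most like those of each member were taken by Pearson's r of log2 CPM over all 24 libraries, which share cell type and table and so are not independent (7681 genes compared for 8 members and 7682 for Clec4e and Clec4d). Clec4f and Cd207 were each other's closest gene, and the closest to Clec4f were Cd207 (0.95), Fabp7 (0.95), Cd5l (0.92). Clec1b was nearest to Anapc15 (0.95), Me2 (0.93), Msr1 (0.93), and Cd209b to Clec1b (0.91), Msr1 (0.89), Slc38a6 (0.88). Clec4g was nearest to Lyve1 (0.96), Wnt2 (0.94), Oit3 (0.93), which include Lyve1, a sinusoidal EC receptor for hyaluronan, and the EC ligand Wnt2. Cd209f was nearest to Cd209g (0.98), Ear2 (0.97), Smc1b (0.97). Clec7a was nearest to C1qc (1.00), Pkib (0.99), Igsf6 (0.99) and Clec4n to 5430427O19Rik (0.99), Rab7b (0.99), Lpcat2 (0.99). Clec7a and Clec4n correlated with each other at r = 0.98 over the 24 libraries, and Clec4f and Cd207 at r = 0.95.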

How the data were processed

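Per the authors' methods, HISAT2 placed the reads on mm10 (GRCm38) and featureCounts gave whole-number counts per gene, deposited in 4 tables as raw counts. Versions, strand use and the treatment of multiply matching reads are not given in the sources used here. The 10 members and all lists were chosen with earlier results of these data known. In R 4.3.3, genes were filtered with filterByExpr (at least 10 counts, 15 in total). TMM factors set the scale, and groups were compared over the 6 libraries of a comparison with the quasi-likelihood test of edgeR 4.0.16 (limma 3.58.1) on all genes, with Benjamini-Hochberg adjustment over all genes. Entries that share a symbol were kept apart within a table and summed where tables were joined. Interactions were tested over 12 libraries by the same test and thresholds, and the mice that gave libraries of both cell types were treated as independent. Alternatives included DESeq2 1.42.0, other scalings and filters, a test for changes beyond 1 on the log2 scale, each library left out, the replicate number as a block, Xist or the EC share as a covariate, and Clec1b summed with Clec9a. A permutation of 3 against 3 libraries cannot give a p below 0.1, so no permutation p is given. Simulated counts with known changes were used to test the scripts. Proteins were not analysed here. The liver result of the signalling list is not reported here. RPKM used the union of exons in GENCODE vM21. Limits from 3 counts cover counting error only. Named genes were the members, Clec9a, Gdf2, Bmp10 and Smad4, up to 3 DEGs of each direction in the lists of lectins and signalling genes, members' neighbours and the 3 most similar genes per member; other names were chosen after their values were seen. Python 3.11.15 and matplotlib 3.10.9 made the tables and figures.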

Additional observations from a re-analysis of the deposited data

Results flagged for a closer look

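The log2 fold change of Clec1b differed between HSC-KO and Smad4 cKO macrophages by -2.68 in the test of the difference itself (edgeR adjusted p = 0.015); it fell in both, and more in HSC-KO macrophages. Cd209b differed between macrophages and ECs of HSC-KO mice by 7.82 (edgeR adjusted p = 0.0044), with a fall in ECs and no call in macrophages. With 1 library left out it differed by 5.95 (without HSC-KO macrophage replicate 3) to 11.93 (without HSC-KO EC replicate 1). Cd209b had 7, 0 and 0 counts in HSC-KO ECs, so the size of this difference rests on a level near the limit of counting. Clec7a differed between the same cell types by 1.79 (edgeR adjusted p = 0.020), with a fall in ECs from a low level and no call in macrophages. This call was lost with the mouse as a random effect (limma-voom adjusted p = 0.26), in a test against a difference of 1 (edgeR adjusted p = 0.17), without HSC-KO EC replicate 3 (edgeR adjusted p = 0.052) and without both libraries of 1 HSC-KO mouse (edgeR adjusted p = 0.057). The macrophage share of the EC libraries, 0.178, 0.12 and 0.127% in controls and 0.0237, 0.0362 and 0.0282% in HSC-KO mice, times the macrophage level gives 0.967, 0.65 and 0.689 and 0.0993, 0.151 and 0.118 CPM of Clec7a, beside a measured 0.715, 0.616 and 1.1 and 0.137, 0.30 and 0.201 CPM. Its part in this result was not tested.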

How the results depend on the processing

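Of the members' fold changes under all alternatives, 1032 kept direction and side of the threshold, 20 passed it newly, 21 no longer passed it and 19 changed sign. The replicate number is not stated to pair mice. Correlations of deviations over 12 same-numbered pairs were from -0.11 to 0.16, which cannot show whether the libraries were paired. With the replicate number as a block, 4 of the 7 members tested in ECs were DEGs, without Cd207, Cd209f and Clec7a. Clec4g was then a DEG in HSC-KO macrophages (edgeR adjusted p = 0.028), and Clec4e no longer differed between control ECs and macrophages (edgeR adjusted p = 0.056). No other call of a member changed with the block. Leaving out 1 library gave 5 to 7 DEGs in HSC-KO macrophages, 5 in Smad4 cKO macrophages in each case, 5 to 7 in ECs and 3 to 4 in livers. Between the HSC-KO and Smad4 cKO responses, DESeq2 called 2 members, Clec4g beside Clec1b, a test against a difference of 1 called 0 (1 without that limit), and leaving out 1 library gave 1 to 3, with 3 (Clec1b, Cd209b and Clec4g) without HSC-KO macrophage replicate 3 and 2 (Clec1b and Clec4f) without Smad4 cKO replicate 1. Between macrophages and ECs, DESeq2 called 3, Cd209f beside Cd209b and Clec7a, a test against a difference of 1 called 1, limma-voom with the mouse as a random effect 1, both Cd209b, and leaving out 1 library gave 1 to 3, the fewest without HSC-KO EC replicate 3 and the most, with Clec1b, without HSC-KO EC replicate 1. The mouse as a random effect could not be estimated for control ECs against control macrophages and was not run there. Signs changed only for members without a call. With 1 library left out, the log2 fold change ranged from -0.84 to 0.20 for Clec4e in HSC-KO macrophages, from -2.77 to 0.26 for Clec4e in livers, and in Smad4 cKO macrophages from -0.087 to 0.64 for Clec4g, -0.21 to 0.019 for Clec4d and -0.18 to 0.21 for Clec7a. The difference between the HSC-KO and Smad4 cKO responses ranged from -1.40 to 1.19 for Cd207, -2.30 to 0.068 for Cd209b and -0.26 to 0.73 for Clec4e. That between macrophages and ECs ranged from -1.43 to 5.39 for Clec4g and -0.85 to 0.21 for Clec4e, which has no EC counts. The EC share as a covariate gave 0.051 for Clec4e in HSC-KO and -0.085 for Clec4g in Smad4 cKO macrophages, library size alone 0.096 for Clec4d there, and limma-voom -0.24 for Clec4f between macrophages and ECs. Scaling by library size alone moved the median log2 fold change of all genes by 0.16 in Smad4 cKO macrophages, 0.29 in ECs, -0.11 in livers, -0.12 between the HSC-KO and Smad4 cKO responses, -0.22 between macrophages and ECs. Over all genes DESeq2 called 814 DEGs in livers and 1122 between the responses, against 425 and 489 by edgeR. Without the 3 macrophage libraries of highest EC share, chosen after seeing the data, 7 members were DEGs, Clec4g and Cd209b with the 5 of the fit over all libraries; this left 1 control, assumed to vary like the mutants. Levels of a few counts (Clec4e, and Cd209f in livers) are limited by depth.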

Other observations

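Of 28 genes that carry signals of C-type lectin receptors (adaptors, kinases and transcription factors from FcR gamma and SYK to NF-kappaB and NFAT), 4 rose and 0 fell in HSC-KO macrophages (median log2 fold change 0.21), where 6.32% and 5.34% of all genes tested did. In Smad4 cKO macrophages 1 rose and 0 fell (median 0.06), where 2.76% and 2.67% of all genes did, and in ECs 2 rose and 4 fell of 26 tested (median -0.15), where 7.68% and 6.01% did. Nfatc2, an NFAT transcription factor, rose from 1.33 ± 0.62 to 43.3 ± 9.61 CPM (log2 fold change 5.01, SE 0.37, edgeR adjusted p = 0.00018) in HSC-KO and from 1.74 ± 0.903 to 12.2 ± 0.823 CPM (log2 fold change 2.82, SE 0.36, edgeR adjusted p = 0.0037) in Smad4 cKO macrophages. Vav3 and Nfatc1 rose in HSC-KO macrophages as well (log2 fold changes 1.90 and 1.58). In ECs Prkcd and Plcg2 rose (2.00 and 1.84), and the adaptor gene Lcp2 and the NF-kappaB gene Rel fell (-3.01 and -1.20). Syk had 247 ± 31.6 and 272 ± 63.5 CPM in control and HSC-KO macrophages (edgeR adjusted p = 0.65), and Fcer1g, the FcR gamma gene, 1124 ± 97.8 and 1273 ± 162 CPM (edgeR adjusted p = 0.44), both chosen after their values were seen.

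Pdpn, which encodes podoplanin, the ligand of CLEC-2, rose in HSC-KO ECs from 1.64 ± 0.664 to 8.58 ± 1.22 CPM (log2 fold change 2.39, SE 0.33, edgeR adjusted p = 0.0024), one of the cell types in which Clec1b fell. It also rose in HSC-KO macrophages, from 0.0624 ± 0.0552 to 1.09 ± 0.651 CPM (log2 fold change 4.14, SE 1.11, edgeR adjusted p = 0.037), as did Ccl21a, from 0.0275 ± 0.0476 to 2.8 ± 2.67 CPM (log2 fold change 6.49, SE 1.30, edgeR adjusted p = 0.012). In ECs Ccl21a, a chemokine of lymphatic ECs, rose from 1.37 ± 0.463 to 16.8 ± 5.57 CPM (log2 fold change 3.61, SE 0.36, edgeR adjusted p = 0.00055), whereas Flt4, a receptor of lymphatic and sinusoidal ECs, fell from 5058 ± 1432 to 1578 ± 195 CPM (log2 fold change -1.68, SE 0.27, edgeR adjusted p = 0.0048) and Prox1, the defining transcription factor of lymphatic ECs, was at 1.79 ± 0.785 and 1.61 ± 0.0406 CPM (edgeR adjusted p = 0.83). In HSC-KO macrophages Pf4, a chemokine gene of platelets and macrophages, rose from 58.5 ± 10.1 to 757 ± 209 CPM with TMM factors (log2 fold change 3.70, SE 0.25, edgeR adjusted p = 0.00012), and in Smad4 cKO macrophages from 67.2 ± 14.8 to 364 ± 65.1 CPM (log2 fold change 2.44, SE 0.21, edgeR adjusted p = 0.00082).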
